A study of Mus musculus with 8 samples.

Results

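The genes of the alarmin and type 2 cytokine axis were followed through the lungs of C57BL/6 mice, either wild type (WT) or transgenic for DDAH1 (TG), that had been given house dust mite extract (HDM) or PBS. The 10 genes were Il33, Tslp and Il25, the receptor gene Il1rl1, the cytokine genes Il4, Il5 and Il13, and the receptor genes Il4ra, Il13ra1 and Il13ra2. They were found by matching Entrez identifiers to gene symbols, and all 10 had a row among the 23469 genes of the count table. HDM was instilled into the trachea at 100 µg per dose (volume 50 µl, PBS as vehicle and control), with 3 doses in each of 3 weeks, and lungs were taken 24 hours after the final dose. The 4 groups were PBS-treated WT (WT PBS), HDM-treated WT (WT HDM), PBS-treated DDAH1-transgenic (TG PBS) and HDM-treated DDAH1-transgenic mice (TG HDM). Lung RNA of the 4 mice of a group was pooled, and each pool gave 2 of the 8 libraries. DDAH1 breaks down asymmetric dimethylarginine, an inhibitor of nitric oxide synthases; the promoter of the transgene and the age and sex of the mice are not given in the sources used here.

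Libraries of the same group come from the same mice, so every SD (n = 2 libraries) and every test covers the spread between libraries of a pool and not the variation between mice. Total counts per library lay between 5694928 and 11929374, the lowest being that of TG HDM replicate 1. The mouse gene Ddah1 had 475 and 420 counts in WT PBS and 771 and 509 in TG PBS. Under HDM it had 482 and 445 in WT against 233 and 431 in TG. On the scale of CPM, counts divided by the library size, the log2 difference of TG over WT was 0.66 under PBS (SE 0.26, adjusted p = 0.358). Under HDM it was -0.32 (SE 0.29, adjusted p = 0.637, edgeR's quasi-likelihood test, Benjamini-Hochberg adjustment for both), against the direction of the label. Neither passed the test. The species of the transgene is not given in the sources used here. Whether these counts include its reads is therefore not known, and they cannot check the label. The libraries labelled TG HDM are named by that label below. Xist, transcribed from the inactive X chromosome of females, had 113 to 197 counts in the PBS libraries and 20303 to 31372 in the HDM libraries, and Ddx3y, a Y-linked gene, had 621 to 719 and 2 to 3. Treatment and sex of the pooled mice therefore cannot be told apart in either genotype, which touches the X-linked genes Il13ra1 and Il13ra2 most directly.

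Alarmins are cytokines that barrier epithelium and stromal cells make and release when they are injured or meet an allergen. IL-33 acts through ST2, the product of Il1rl1, TSLP through its own receptor with the IL-7 receptor alpha chain, and IL-25 through IL-17RB, and all of them drive group 2 innate lymphoid cells and T helper 2 cells to make IL-4, IL-5 and IL-13. IL-4 and IL-13 signal through IL-4Rα, paired with the common gamma chain or with IL-13Rα1, to STAT6, and in the lung they are known for mucus production, chitinase-like proteins and chemokines that attract eosinophils and T cells, while IL-13Rα2 binds IL-13 as a decoy. Il4 and Il13 lie next to each other on chromosome 11, at chr11:53612460-53618665 and chr11:53631323-53634702, both on the minus strand, and Il5 lies at chr11:53720794-53725103 on the plus strand. Il33 lies at chr19:29925113-29960718, Il1rl1 at chr1:40404864-40465418, Il4ra at chr7:125552271-125579474, Il13ra1 at chrX:36112108-36171262 and Il13ra2 at chrX:147383478-147429192, all in GRCm38. Il25 lies at chr14:54932695-54935837.

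The promoters of the genes whose counts differed most between groups are shown here, as 300 bases from 250 before to 50 after the annotated start, 5′ to 3′ on the strand of the gene (RefSeq, GRCm38.p6). Il33 has a pair of starts in that table, with the windows chr19:29924863-29925162 and chr19:29945540-29945839. Il4 also has a pair of starts, of which the upstream one is shown because it holds a match to the letters searched and the other holds none. The windows of Il4 and Il13 are chr11:53618616-53618915 and chr11:53634653-53634952. Capitals mark the letters TTCNNNNGAA, the spacing bound by STAT6, AGATAA, bound by GATA factors, and TATAAA, the TATA box, each searched on both strands.
Il33, first start: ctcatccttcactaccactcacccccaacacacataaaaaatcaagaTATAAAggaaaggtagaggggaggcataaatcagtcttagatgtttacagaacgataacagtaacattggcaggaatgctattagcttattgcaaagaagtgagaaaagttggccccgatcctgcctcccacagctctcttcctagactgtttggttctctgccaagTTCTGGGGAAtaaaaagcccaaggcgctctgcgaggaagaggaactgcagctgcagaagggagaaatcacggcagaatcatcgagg
Il33, second start: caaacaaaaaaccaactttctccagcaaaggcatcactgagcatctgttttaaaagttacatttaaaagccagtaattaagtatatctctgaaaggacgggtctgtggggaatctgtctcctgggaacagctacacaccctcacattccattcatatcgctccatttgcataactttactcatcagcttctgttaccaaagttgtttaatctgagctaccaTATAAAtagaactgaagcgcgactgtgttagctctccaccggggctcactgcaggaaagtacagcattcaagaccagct
Il4: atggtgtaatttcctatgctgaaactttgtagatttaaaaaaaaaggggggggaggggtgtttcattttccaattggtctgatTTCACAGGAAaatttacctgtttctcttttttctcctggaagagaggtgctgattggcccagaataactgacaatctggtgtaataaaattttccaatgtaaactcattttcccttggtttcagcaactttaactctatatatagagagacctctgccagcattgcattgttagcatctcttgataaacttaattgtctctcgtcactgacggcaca
Il13: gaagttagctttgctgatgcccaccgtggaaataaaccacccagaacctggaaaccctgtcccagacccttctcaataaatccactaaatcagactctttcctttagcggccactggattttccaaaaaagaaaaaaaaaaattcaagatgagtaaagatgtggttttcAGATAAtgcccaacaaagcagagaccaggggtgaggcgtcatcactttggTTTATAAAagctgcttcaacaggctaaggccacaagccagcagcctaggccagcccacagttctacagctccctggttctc
In the first Il33 promoter, the STAT6 letters stand at -36 to -27 from the start and TATA letters at -203 to -198, and in the second, the TATA letters stand at -29 to -24. The Il4 promoter holds the STAT6 letters at -167 to -158. The Il13 promoter holds the GATA letters at -81 to -76 and TATA letters of both strands that overlap each other at -31 to -24. Of 32851 mouse promoter windows of this length, 6.95% hold TTCNNNNGAA, 11.2% hold AGATAA and 13.6% hold TATAAA, so that these matches are a description of the sequence and nothing more.

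Il33, Il13 and Il4 were also assayed by RT-qPCR in the study, and the primers show which part of each transcript those assays read. Each primer below matches the principal GENCODE M21 transcript of its gene at a single place and that of none of the other genes of the axis. The Il33 primers lie in coding exons 3 (chr19:29951978-29951996) and 4 (chr19:29952782-29952800). The forward Il13 primer lies in coding exon 1 (chr11:53634581-53634601), and the reverse one crosses from exon 2 into exon 3 (chr11:53632569-53633166, intron included). The sequences are given as the transcript reads them or as its reverse complement.
Il33 forward: tcccaacagaagaccaaag
Il33 reverse: gatactgccaagcaaggat
Il13 forward: gcttgccttggtggtctcgcc
Il13 reverse: gggctacacagaacccgcca
The forward Il4 primer lies in coding exon 3 (chr11:53614010-53614033), and the reverse one had 0 exact matches in the principal transcript, so it has no place here.

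Il33 had the most counts of the 3 alarmin genes and the clearest differences between groups. Its counts were 1148 and 1778 in WT PBS, 6652 and 5227 in WT HDM, 1525 and 1360 in TG PBS, and 1747 and 3239 in TG HDM. Scaled to library size by the TMM method, this came to 130 ± 21.4 CPM in WT PBS, 560 ± 49.1 in WT HDM, 148 ± 6.45 in TG PBS and 256 ± 6.69 in TG HDM (mean ± SD, n = 2 libraries each). Both libraries of WT HDM stood above all others, both libraries of TG HDM came next, and the PBS groups overlapped.

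**Figure D1:**
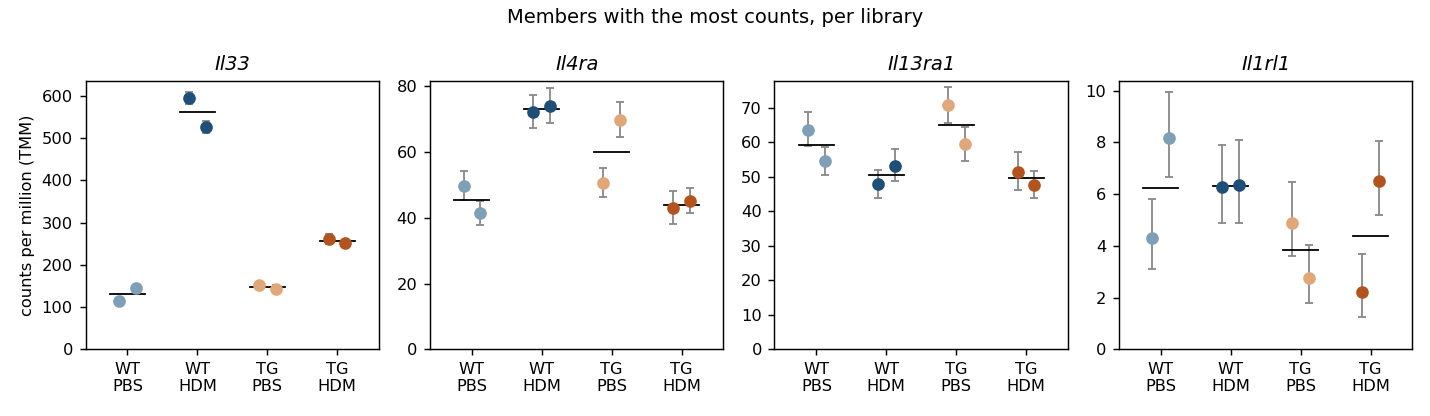
CPM with TMM scaling (vertical axis, each panel with its own scale from 0) of Il33, Il4ra, Il13ra1 and Il1rl1 in each of the 2 libraries of the 4 groups. Points are libraries, grey bars are 95% Poisson intervals of the count, and black lines are group means; for Il33 the WT HDM libraries stand at 595 and 526 CPM and the TG HDM libraries at 261 and 251.

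Il33 rose with HDM in WT lungs by 2.10 on the log2 scale (SE 0.15, adjusted p = 5.58e-07) and in TG lungs by 0.82 (SE 0.19, adjusted p = 0.0155, edgeR's quasi-likelihood test, Benjamini-Hochberg adjustment for both). Between genotypes, Il33 was lower in TG HDM than in WT HDM, with a log2 difference of -1.09 (SE 0.18, adjusted p = 0.00759, same test). Under PBS the genotype difference was 0.17 (SE 0.16, adjusted p = 0.786), with a 95% interval from -0.17 to 0.52. The genotype difference under HDM minus that under PBS, the interaction fitted on all 8 libraries, was -1.31 (SE 0.23, adjusted p = 0.00435, same test). Without WT HDM replicate 1, the difference between TG HDM and WT HDM was -1.02 (adjusted p = 0.317), and without WT HDM replicate 2 it was -1.17 (adjusted p = 0.171), in fits of 3 libraries that call 6 and 20 genes in all and take the lone WT HDM library to vary as the other group does. Without TG PBS replicate 1 or 2, the rise in TG lungs was 0.85 (adjusted p = 0.164) or 0.77 (adjusted p = 0.231), whereas the interaction stayed past the threshold without any single library (adjusted p at most 0.0482).

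Tslp and Il25 gave few or no reads. Tslp, the gene of thymic stromal lymphopoietin, had 11 and 12 counts in WT PBS, 15 and 9 in WT HDM, 9 and 20 in TG PBS, and 6 and 8 in TG HDM, or 1.04 ± 0.0861, 1.12 ± 0.309, 1.51 ± 0.855 and 0.757 ± 0.194 CPM (n = 2 libraries each). The groups overlapped or all but touched, since the higher TG HDM library lay just below the lowest library of the other groups with TMM factors (0.895 against 0.901 CPM) and above it with RLE size factors (0.913 against 0.901 CPM). No comparison passed the test. The 95% intervals on the log2 scale were as wide as -3.58 to 2.51 between TG HDM and WT HDM and -5.03 to 2.83 in the interaction. Il25, the gene of interleukin 25, had 0 counts in all 8 libraries. For a count of 0, the 95% Poisson interval ends at 0.286 to 0.550 CPM depending on the library, for counting error only. Il25 was therefore not detectable at this depth in any group.

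Il1rl1 encodes ST2, as a membrane receptor for IL-33 and, from another promoter, as a soluble form that binds it, and counts per gene do not separate these forms. It had 43 and 100 counts in WT PBS, 70 and 63 in WT HDM, 49 and 26 in TG PBS, and 15 and 84 in TG HDM. This came to 6.24 ± 2.73, 6.30 ± 0.0514, 3.82 ± 1.53 and 4.37 ± 3.02 CPM (n = 2 libraries each). The libraries of TG HDM differed 2.91-fold from each other, and the groups overlapped in all 4 comparisons. No comparison passed the test, and the difference between WT HDM and WT PBS was 0.01 with a 95% interval from -1.28 to 1.29 on the log2 scale, beside the rise of Il33 in the same libraries.

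Counts of Il4 and Il13 were highest in WT HDM, and those of Il5 were few in all groups. Il13 had 1 and 0 counts in WT PBS, 28 and 9 in WT HDM, 0 and 0 in TG PBS, and 0 and 2 in TG HDM. Both WT HDM libraries stood above the other 6. Over the pooled counts of a group, Il13 was 38.9-fold higher in WT HDM than in WT PBS (exact 95% interval 6.57 to 1578) and 17.2-fold higher than in TG HDM (4.43 to 147), intervals that cover counting error only. The ratio to WT PBS was 17.5 without WT PBS replicate 2, 20.1 without WT HDM replicate 1 and 55.7 without WT HDM replicate 2, and without WT PBS replicate 1 the group was at 0 counts. The ratio to TG HDM was 8.87 without WT HDM replicate 1, which held 28 of the 37 counts, 24.6 without WT HDM replicate 2 and 11.3 without TG HDM replicate 1, and without TG HDM replicate 2 that group was at 0. Il13 was below the low-count filter, and without the filter neither difference passed (adjusted p = 0.121 for WT HDM over WT PBS and 0.371 for TG HDM over WT HDM, edgeR), so neither was shown to exceed the spread between libraries.

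**Figure D2:**
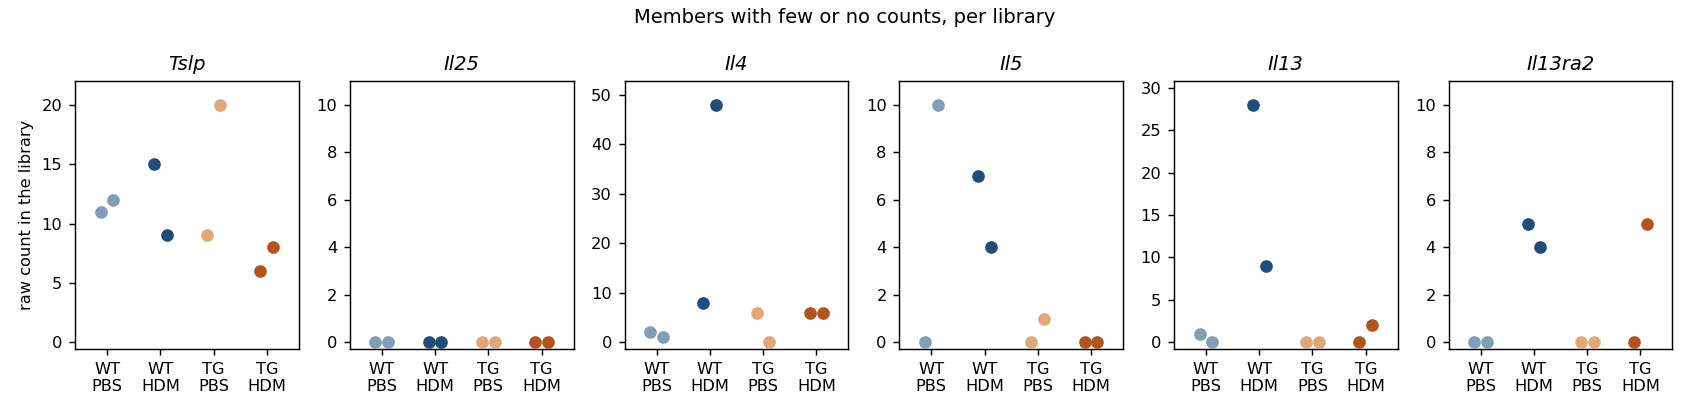
Raw counts (vertical axis, each panel with its own scale) of Tslp, Il25, Il4, Il5, Il13 and Il13ra2 in each of the 2 libraries of the 4 groups; points are libraries. The counts of Il13 stand at 28 and 9 in WT HDM and at 0 to 2 elsewhere, and Il25 is at 0 throughout.

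Il4 had 2 and 1 counts in WT PBS, 8 and 48 in WT HDM, 6 and 0 in TG PBS, and 6 and 6 in TG HDM, or 0.141 ± 0.0839, 2.77 ± 2.91, 0.300 ± 0.425 and 0.680 ± 0.304 CPM (n = 2 libraries each). The libraries of WT HDM differed 6.74-fold from each other in CPM, and WT HDM and TG HDM overlapped. The pooled counts were 4.33-fold higher in WT HDM than in TG HDM (exact 95% interval 2.30 to 8.88, counting error only), but without WT HDM replicate 2 the ratio was 1.17 (0.415 to 3.11). The fitted log2 difference between TG HDM and WT HDM was -1.99 (SE 1.35, adjusted p = 0.505, edgeR's quasi-likelihood test, Benjamini-Hochberg adjustment). The difference was thus not shown to exceed the spread between libraries. Against WT PBS, the pooled counts of WT HDM were 19.6-fold higher (6.38 to 98.1), or 5.30-fold (1.27 to 31.0) without WT HDM replicate 2.

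Il5, whose product drives the growth and survival of eosinophils, had 0 and 10 counts in WT PBS, 7 and 4 in WT HDM, 0 and 1 in TG PBS, and 0 and 0 in TG HDM. The pooled counts of WT HDM and WT PBS, 11 and 10, had a ratio of 1.16 (exact 95% interval 0.446 to 3.04). With the TG HDM group set to a floor of 3 counts, Il5 was 3.40-fold lower there than in WT HDM. That value leaves out the counting error of the 11 WT HDM counts, so it is not a lower bound. The difference did not pass without the low-count filter (adjusted p = 0.525, edgeR). In the PBS groups, 1 count in TG stood against 10 in WT, all of the latter in replicate 2, so that the genotypes overlapped under PBS.

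Of the receptor genes, Il4ra was highest in WT HDM, as Il33 was. The gene of the IL-4 receptor alpha chain, shared by both cytokines, had 495 and 505 counts in WT PBS, 805 and 734 in WT HDM, 504 and 659 in TG PBS, and 287 and 581 in TG HDM, the last from libraries of unequal depth. In CPM this was 45.4 ± 5.90, 72.9 ± 1.27, 60.0 ± 13.5 and 43.9 ± 1.58 (n = 2 libraries each). WT HDM was the highest group, and its libraries stood 1.02-fold apart, while those of TG PBS stood 1.38-fold apart. The log2 differences were 0.68 for WT HDM over WT PBS (SE 0.22, adjusted p = 0.0831), -0.42 for TG HDM over TG PBS (SE 0.28, adjusted p = 0.369) and -0.69 for TG HDM over WT HDM (SE 0.25, adjusted p = 0.202, edgeR's quasi-likelihood test, Benjamini-Hochberg adjustment for all). The interaction was -1.13 (SE 0.35, adjusted p = 0.124, same test). None of these passed the threshold in this test, and DESeq2 put the WT treatment difference and the interaction past it (adjusted p = 0.0437 and 0.0400).

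Il13ra1, the X-linked gene of the chain that pairs with IL-4Rα to bind IL-13, had 636 and 667 counts in WT PBS, 535 and 530 in WT HDM, 707 and 563 in TG PBS, and 345 and 615 in TG HDM. The CPM were 59.1 ± 6.53, 50.6 ± 3.84, 65.1 ± 8.03 and 49.6 ± 2.67 (n = 2 libraries each). The HDM libraries of both genotypes lay below the PBS libraries of the same genotype, without passing the test (log2 differences -0.23 in WT and -0.37 in TG, adjusted p = 0.640 and 0.415, edgeR). The genotype difference under HDM was 0.01 with a 95% interval from -0.58 to 0.60, and was just below 0 with RLE size factors.

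Il13ra2, also X-linked, encodes the decoy receptor of IL-13. It had 0 counts in all 4 PBS libraries, 5 and 4 in WT HDM, and 0 and 5 in TG HDM. With the WT PBS group set to a floor of 3 counts, WT HDM was 3.16-fold higher than WT PBS. That value leaves out the counting error of the WT HDM counts, so it is not a lower bound. The difference did not pass without the low-count filter (adjusted p = 0.431, edgeR). In TG the groups overlapped, since all 5 counts of TG HDM were in replicate 2. The pooled ratio of WT HDM to TG HDM was 1.67 (exact 95% interval 0.503 to 6.35), an interval that holds both directions. The treatment groups also differ in sex, as the counts of Xist and Ddx3y show, and its part in these X-linked genes was not tested.

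Per length, the genes of the receptors stood below Il33 in WT lungs, whether the length of the whole transcript or of its coding part was taken. In WT PBS the levels per kilobase of the principal transcript were 51.2 ± 8.41 CPM for Il33, 15.9 ± 1.76 for Il13ra1, 8.64 ± 1.12 for Il4ra, 1.18 ± 0.515 for Il1rl1 and 0.925 ± 0.0764 for Tslp (n = 2 libraries each). The last 2 do not differ beyond their spread. In WT HDM the same levels were 220 ± 19.3 for Il33, 13.9 ± 0.241 for Il4ra, 13.6 ± 1.03 for Il13ra1, 4.70 ± 4.93 for Il4, 1.42 ± 0.939 for Il13, 1.19 ± 0.00970 for Il1rl1 and 0.998 ± 0.274 for Tslp. On this scale Il4, Il13, Il1rl1 and Tslp do not differ beyond their spread. The order of Il4ra and Il13ra1 in WT HDM depends on the length used. They do not differ beyond their spread per kilobase of transcript, but per kilobase of coding sequence Il4ra was below Il13ra1 in WT HDM (30.0 ± 0.521 against 39.8 ± 3.02 CPM) as in WT PBS (18.7 ± 2.43 against 46.5 ± 5.13 CPM, n = 2 libraries each).

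Of the 10 genes, 5 or 6 passed the low-count filter in a comparison. Il25, Il5, Il13 and Il13ra2 had too few counts for it in every comparison, and Il4 passed it in the comparison of TG HDM with WT HDM and in the interaction, where WT HDM replicate 2 carried most of its reads. Without the filter, Il4, Il5, Il13 and Il13ra2 passed the threshold in no comparison, the lowest adjusted p being 0.0644 for Il4 in WT HDM over WT PBS (edgeR). Il33 alone passed the threshold of edgeR's test in any comparison. It was lower in TG HDM than in WT HDM (1 of 6 genes tested, beside 0.599% of all 15191 genes tested called lower and 1.84% called higher), and higher with HDM in WT (1 of 5, beside 4.44%) and in TG (1 of 5, beside 8.43%; 2.30% and 5.35% of all genes were called lower in these). In the interaction it was lower (1 of 6, beside 0.706% called lower and 1.05% called higher), and between TG PBS and WT PBS none of 5 genes was called, beside 0.281% called higher and 0.375% called lower, and none had an unadjusted p under 0.05. DESeq2 also called none of these 5. Over all genes, 279 were called higher and 91 lower in TG HDM than in WT HDM, a split that became 119 and 69 with an offset for gene length, and Il33 was called lower in both.

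**Figure D3:**
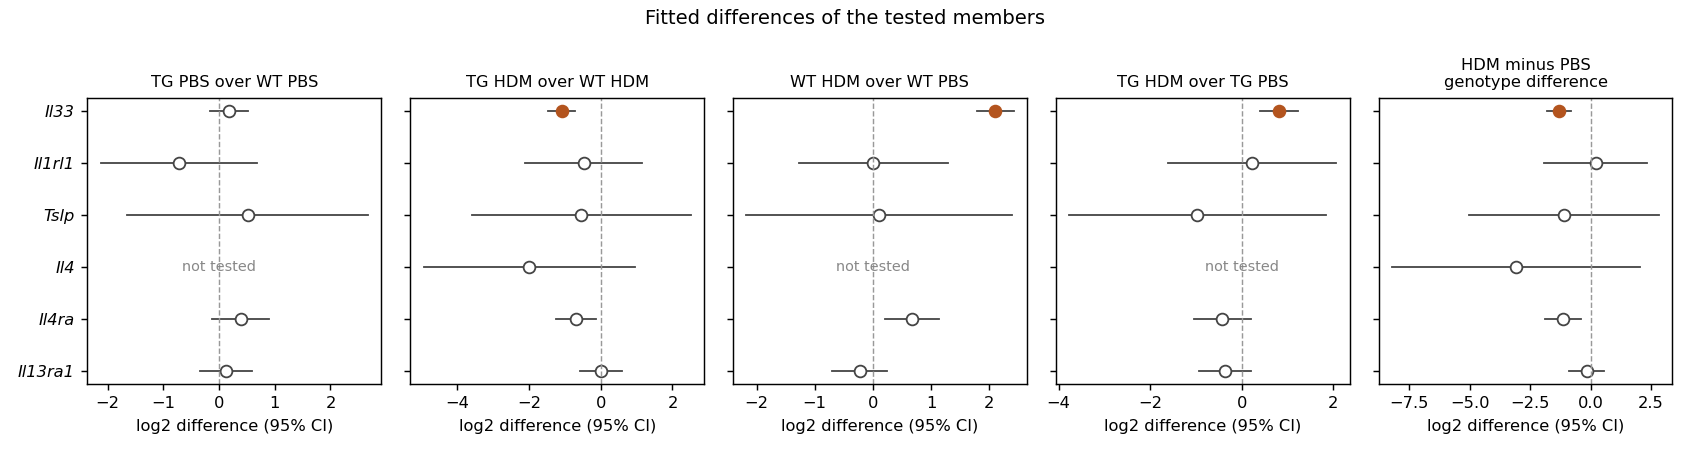
Log2 differences (horizontal axis, a scale for each panel) with 95% confidence intervals of the 6 genes that were tested in at least 1 comparison, in 4 pairwise comparisons and the interaction; filled points passed an adjusted p of 0.05 in edgeR's quasi-likelihood test. The filled points are those of Il33, at -1.09, 2.10, 0.82 and -1.31, and the intervals of Tslp, Il1rl1 and Il4 are the widest.

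Of 8 receptor partner genes, 1 was called higher with HDM in WT and 3 in TG, beside 4.44% and 8.43% of all genes called higher. Il2rg, the common gamma chain, rose with HDM in WT by 1.28 on the log2 scale (SE 0.20, adjusted p = 0.00127) and in TG by 1.02 (SE 0.27, adjusted p = 0.0299, edgeR). In TG, Il7r, the alpha chain of the TSLP receptor, and Csf2rb, the beta chain of the IL-5 receptor, rose as well, by 1.20 and 1.27 (adjusted p = 0.0172 and 0.00630, edgeR). In WT their differences were 0.90 and 0.60 (adjusted p = 0.0734 and 0.0591, edgeR), both past the threshold with DESeq2 (0.0349 and 0.0248) and without the low-count filter (0.0167 and 0.0192), and their interactions did not pass (0.810 and 0.326, edgeR). All 3 receptor partners lose the call in TG without either TG PBS library (adjusted p from 0.121 to 0.285), and Il2rg also with a length offset (0.110, or 0.0977 with the replicate block) and without TG HDM replicate 1 (0.0627). The median log2 difference of the 8 was 0.37 in WT and 0.67 in TG, beside 0.02 and 0.03 over all genes tested. Il17rb, the receptor chain of IL-25, had 28, 5, 14 and 14 pooled counts in WT PBS, WT HDM, TG PBS and TG HDM. Il5ra had 175, 180, 132 and 84.

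Of 12 signal transducer genes, from the Janus kinases and STAT factors to the adaptors below ST2, 1 was called higher in WT, beside 4.44% of all genes. Jak2 rose with HDM in WT by 0.73 (SE 0.17, adjusted p = 0.0166, edgeR), a call that is lost without either WT PBS library (adjusted p = 0.0575 and 0.120) and with all 8 libraries in a single fit (0.0527). The other 11 passed in neither treatment comparison, although Myd88, the adaptor of ST2, passed in TG with DESeq2 (1.22, adjusted p = 0.0338), without the low-count filter (0.0265), with the replicate block (0.0211) and with all 8 libraries in a single fit (0.0366). Of 5 transcription factor genes of type 2 lymphocytes, Irf4 rose by 2.28 in WT (SE 0.25, adjusted p = 3.79e-05) and by 3.63 in TG (SE 0.34, adjusted p = 5.06e-05), and Rora fell by 2.00 in TG (SE 0.41, adjusted p = 0.00779, edgeR for all). Rora loses its call without either TG PBS library (adjusted p = 0.110 and 0.0627). Irf4 also acts in other lymphocytes and macrophages, and Gata3, the defining factor of the list, had 7.86 ± 2.05, 6.93 ± 1.97, 8.92 ± 3.52 and 11.2 ± 8.99 CPM in WT PBS, WT HDM, TG PBS and TG HDM (n = 2 libraries each). None of 5 inhibitor genes and none of the other type 2 cytokine genes passed, and Il9 and Il3 had 0 counts throughout. None of the genes of these 5 lists passed edgeR's test with the filter between genotypes under PBS or HDM or in the interaction, where 4 of 32, 4 of 31 and 4 of 32 tested had an unadjusted p under 0.05, beside 9.98%, 16.2% and 14.7% of all genes. Csf2rb, with -0.91 in TG PBS over WT PBS (adjusted p = 0.0531, edgeR), lay just outside the threshold and passed it with DESeq2 (0.00623), without the filter (0.00457), with the length offset (0.0493, or 0.0125 with the replicate block) and without either TG PBS library (0.0306 and 0.0240). Irf4 passed in the interaction with DESeq2 (1.33, adjusted p = 0.0310) and without the filter (1.32, adjusted p = 0.0399, edgeR). Sigirr and Irs2 under HDM, Sigirr in the interaction and Bcl6 under PBS were each called without 1 of the TG libraries.

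Many of the genes that IL-4 and IL-13 are known to induce rose with HDM, and several were lower in TG HDM than in WT HDM. Of 20 listed genes, 14 of 17 tested rose with HDM in WT and 12 of 16 in TG, and none fell. Of all genes, 4.44% and 8.43% were called higher in these, and the median log2 differences of the list were 4.59 and 2.95. Some of these calls were lost under other settings or with a library left out. Among them were Itln1 in WT and Arg1, Chia1, Ccl11 and Fcgbp in TG. The rise of Ccl11 in TG was 1.35 without TG HDM replicate 2 and 2.94 without TG HDM replicate 1. Between TG HDM and WT HDM, 9 of 18 tested were lower and none was higher, beside 0.599% of all genes called lower, with a median of -1.30 beside 0.01 over all genes tested. Of the 18, 15 lay below 0 and 3 above it, namely Spdef (1.54), Tff2 (1.29) and Itln1 (0.84), none of them called. Between TG PBS and WT PBS none of 14 was called by edgeR, with a median of 0.52; 4 had an unadjusted p under 0.05, beside 9.98% of all genes, all higher in TG PBS, and DESeq2 called Clca1 (1.795, adjusted p = 0.0383) and Chil3 (0.43, adjusted p = 0.0283). All 9 of the genes called lower in TG HDM, like Il33, were also picked by the study as lower in these same libraries, so their count is not independent evidence of its direction. By RT-qPCR, the study also reported lower Il33, Il4, Il13, Ccl11, Arg1, Chia1, Chil3 and Chil4 expression in HDM-treated transgenic than in HDM-treated wild type lungs.

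Arg1, the arginase of alternatively activated macrophages, was at 3.79 ± 0.736 CPM in WT PBS, 93.3 ± 2.81 in WT HDM, 2.15 ± 0.210 in TG PBS and 16.6 ± 2.44 in TG HDM (n = 2 libraries each). It had the largest fall among the called genes of the list, with -2.44 between TG HDM and WT HDM (SE 0.28, adjusted p = 0.00151, edgeR). Slc26a4, the anion exchanger pendrin of airway epithelium, and Ccl22, a chemokine for T helper 2 cells, both had a log2 difference of -1.82 (adjusted p = 0.00157 and 0.0182, edgeR). Clca1 and Muc5ac, genes of mucous cells, were lower with differences of -1.38 and -1.22, and Chil3 and Chil4, of the chitinase-like proteins, with -1.21 and -1.55. The acidic chitinase gene Chia1 had -1.62 and the mucus protein gene Fcgbp -1.58. Chil3 and Chil4 are close copies whose reads may be split between them, so their values are less certain than those of the others. Fcgbp lost its call with the length offset (-1.29, adjusted p = 0.139, edgeR), and all 9 lost it without either WT HDM library, with log2 differences from -2.47 to -1.08.

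**Figure D4:**
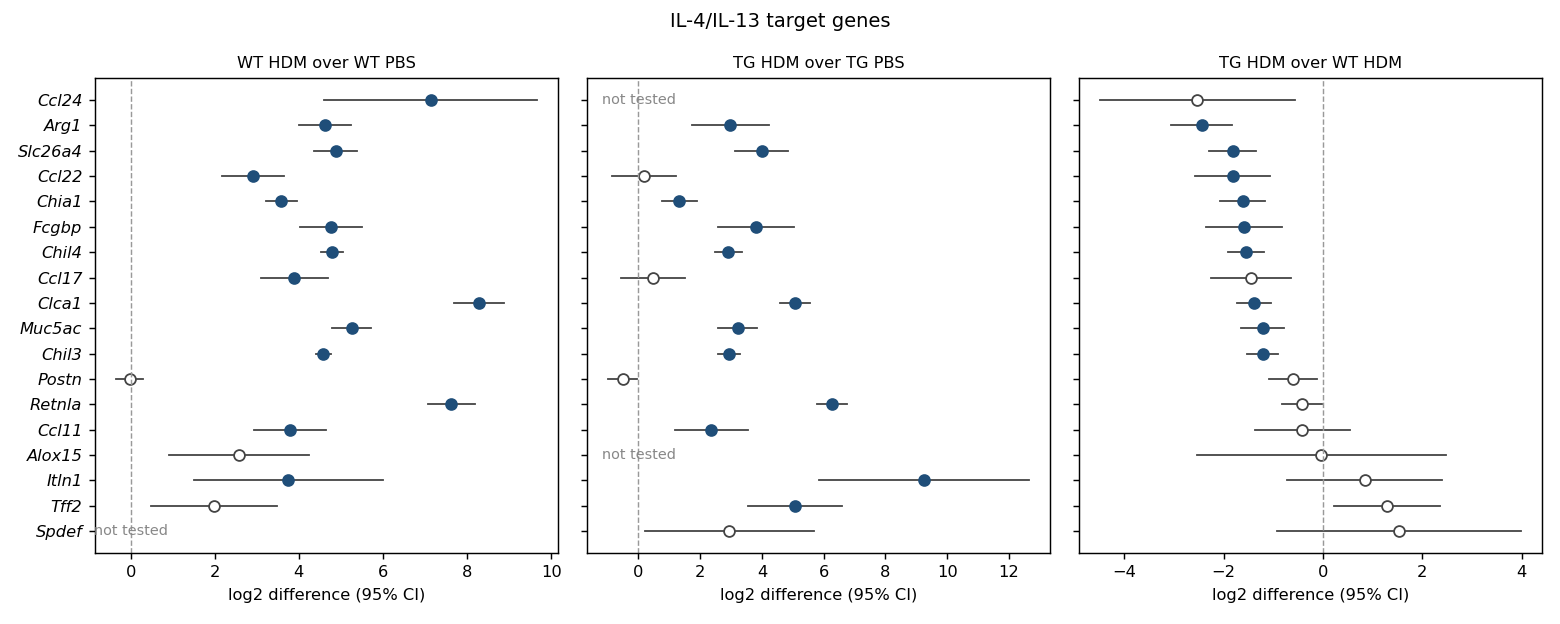
Log2 differences (horizontal axis, a scale for each panel) with 95% confidence intervals of 18 genes that IL-4 and IL-13 are known to induce, for HDM over PBS in WT, HDM over PBS in TG, and TG HDM over WT HDM; filled points passed an adjusted p of 0.05 in edgeR's quasi-likelihood test. The 9 filled points of the last panel lie between -2.44 and -1.21.

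With HDM, the 4 largest rises of the list in WT were those of Clca1 (8.29), Retnla (7.62), Ccl24 (7.14) and Muc5ac (5.26), and in TG those of Itln1 (9.26), Retnla (6.26), Clca1 (5.07) and Tff2 (5.06), all on the log2 scale. Itln1 had 0 counts in both TG PBS libraries, and Ccl24 had 1 and 0 counts in WT PBS, so the fitted sizes of these depend on the prior count. Retnla, a secreted protein of alternatively activated macrophages and epithelium, went from 9.70 ± 4.13 to 1895 ± 448 CPM in WT and from 18.2 ± 1.33 to 1373 ± 259 CPM in TG (n = 2 libraries each). Ccl22 was at 12.6 ± 2.65 CPM in TG PBS and 14.0 ± 4.20 in TG HDM, while it rose in WT by 2.91 on the log2 scale (SE 0.34, adjusted p = 9.27e-05, edgeR). In the interaction, 8 of 18 tested genes were lower and none was higher, beside 0.706% of all genes called lower, with a median of -1.55. These were Retnla, Chil3, Chil4, Chia1, Ccl17, Ccl22, Clca1 and Muc5ac, with differences from -3.45 for Ccl17 to -1.38 for Retnla. Of the 18, 14 lay below 0 and 4 above it. The largest above 0 were Itln1 (5.58, adjusted p = 0.215, edgeR) and Tff2 (3.06, adjusted p = 0.110, edgeR). DESeq2 also called Tff2 higher (3.07, adjusted p = 0.042) and Arg1 lower (-1.67, adjusted p = 0.032).

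Markers of cell types were summed per library to set beside these differences, since in bulk RNA fewer cells of a type and less RNA per cell cannot be told apart. The 6 lung epithelial markers, such as Sftpc and Scgb1a1, were present in every group, with a summed level of 41532 to 49156 CPM in WT PBS and 21692 to 25353 in WT HDM, against 50120 to 72359 in TG PBS and 21374 to 30157 in TG HDM. Scgb1a1 of club cells carried most of the lower sum in WT HDM, going from 30609 ± 5067 to 11187 ± 1337 CPM, and Sftpc went from 9852 ± 101 to 6421 ± 1029. Sftpa1 and Lamp3 of the same list stood higher in WT HDM, at 2927 ± 160 and 620.1 ± 0.649 against 1906 ± 124 and 508 ± 13.2 CPM (n = 2 libraries each). The 6 markers of group 2 innate lymphoid and T helper 2 cells summed to 32.7 to 38.0, 29.1 to 42.3, 39.7 to 55.7 and 23.6 to 40.7 CPM in the same order of groups. All 6 had counts in each group, Gata3 among them. The sums hide members that went opposite ways. Rora, a large share of them, stood at 22.5 ± 4.89, 13.2 ± 0.514, 32.4 ± 7.58 and 7.89 ± 1.88 CPM. Ccr8, a chemokine receptor of T helper 2 cells, had 1 and 1 counts in WT PBS, 75 and 30 in WT HDM, 6 and 19 in TG PBS, and 6 and 7 in TG HDM. Ccr4, a receptor for the products of Ccl17 and Ccl22, stood at 2.72 ± 0.836, 9.36 ± 4.85, 3.00 ± 1.70 and 8.89 ± 5.56 CPM (n = 2 libraries each).

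The 5 measured T cell markers summed to 59.5 to 65.9 CPM in WT PBS and 89.6 to 96.0 in WT HDM. In TG PBS they summed to 29.6 to 35.4 and in TG HDM to 82.8 to 103, so the groups with HDM overlapped. From WT PBS to WT HDM, Cd8a went from 9.06 ± 1.75 to 5.54 ± 1.15 CPM. Cd3e went the other way, from 16.1 ± 5.58 to 33.2 ± 5.02 (n = 2 libraries each). Cd3g, Cd4 and Lck also had higher means in WT HDM. The 6 thymocyte markers, such as Rag1 and Dntt, summed to 68.4 to 68.5 CPM in WT PBS and to 11.6 to 19.8 in the other groups. The 6 skeletal muscle markers summed to 2.81 to 6.21 CPM in WT PBS, 79.7 to 103 in WT HDM, 166 to 168 in TG PBS and 41.3 to 57.1 in TG HDM. The thymocyte and muscle sums were thus not alike between the pools, and their part in the differences of Il33, Il4ra or the target genes was not tested.

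The 5 eosinophil markers summed to between 13.9 and 32.5 CPM over all libraries. Epx, the gene of eosinophil peroxidase, had 0 counts in all libraries but TG HDM replicate 2, where it had 1. The sum hides members that went different ways. Ccr3 had 6 and 0 counts in WT PBS and 138 and 16 in WT HDM. In TG PBS it had 1 and 1, and in TG HDM 22 and 0. Prg2 had 6 and 35, 9 and 70, 2 and 7, and 40 and 144 counts in the same order of groups. Siglecf stood at 12.1 ± 1.57, 8.54 ± 1.58, 10.3 ± 3.94 and 14.1 ± 6.06 CPM (n = 2 libraries each). Reads of these markers do not count cells. The study counted eosinophils in lavage fluid and reported fewer in HDM-treated transgenic than in HDM-treated wild type mice. The 8 markers of mast cells and basophils summed to 135 to 136 CPM in WT PBS, 94.5 to 112 in WT HDM, 156 to 157 in TG PBS and 69.3 to 100.2 in TG HDM. Kit, which other lung cells also express, made up nearly all of these sums, with 132 ± 0.0365, 96.5 ± 19.1, 152 ± 1.58 and 81.9 ± 19.7 CPM. Cpa3, a mast cell protease gene, had 15 and 27, 92 and 14, 14 and 43, and 0 and 17 counts in the same order of groups, so the WT groups overlapped. Mcpt8, which defines basophils, had 0 counts in 7 libraries and 3 in TG HDM replicate 2, and Fcer1a had 0 in both WT groups. The 5 fibroblast markers summed to between 668 and 695 CPM in WT PBS, WT HDM and TG PBS, and to 498 to 569 in TG HDM. Members of this list also went opposite ways in WT. From WT PBS to WT HDM, Pdgfra went from 167 ± 10.1 to 93.7 ± 17.2 CPM and Dcn from 146 ± 5.14 to 100 ± 2.74. Col1a1 went from 154 ± 10.6 to 212 ± 17.4, Col1a2 from 200 ± 0.855 to 270 ± 30.9 and Lum from 5.31 ± 0.572 to 8.30 ± 0.922 (n = 2 libraries each).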

How the data were processed

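RNA-Seq was performed on 8 libraries, 2 from the pooled lung RNA of each of 4 groups. The authors amplified the RNA, sequenced 50 cycles from a single end, aligned them to mm10 (GRCm38) with TopHat, and summed reads per gene over its coding region in R (ShortRead and other Bioconductor code). The deposited values are raw read counts for 23469 genes under Entrez identifiers. Genes without a coding region, such as Xist and the 45S ribosomal RNA gene (8.58% to 21.8% of a library), also have counts, so the counted region is not fully described by the methods. Strand and the handling of reads with several matches are not given in the sources used here. Symbols came from RefSeq (GRCm38.p6, 23372 identifiers matched) and transcript lengths from GENCODE M21 (21146 genes).

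Each pairwise comparison was fitted on its own 4 libraries, and the interaction on all 8, with edgeR 4.0.16 (R 4.3.3, quasi-likelihood test, TMM, filterByExpr with a count minimum of 10). Benjamini-Hochberg adjustment covered every gene tested in a comparison, with a threshold of 0.05. Levels are CPM with TMM factors of all 8 libraries. Pooled counts were compared with exact conditional binomial intervals (95%), and a group at 0 counts was set to a floor of 3 counts over the group. The script was tested on simulated counts. The 10 genes and the lists of pathway and marker genes (112 genes, of which 111 are in the table; Trac is not) were chosen with earlier results of these data known. All 10 genes were described throughout. Pathway genes were named where they passed in a genotype comparison or the interaction, or were among the 4 largest changes per direction with treatment, and the genes called in a list of few were named after their values were seen. Alternatives were RLE size factors, a block for the replicate number, DESeq2 1.42.0, library sizes without the 45S ribosomal RNA and haemoglobin genes, leaving out the low-count filter, a length offset (loess, span 0.5) with and without the block, all libraries in a single fit, and each library left out.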

Additional observations from a re-analysis of the deposited data

Results flagged for a closer look

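The genotype difference under HDM departed from that under PBS for 9 of the genes described here by the interaction test on all 8 libraries (edgeR's quasi-likelihood test, Benjamini-Hochberg adjustment). These were 1 of 6 tested genes of the axis and 8 of 18 tested target genes. Of all 15868 genes tested, 0.706% were called lower and 1.05% higher. For Il33 the difference of differences was -1.31 on the log2 scale (adjusted p = 0.00435), since TG HDM stood below WT HDM while TG PBS and WT PBS overlapped. The other 8 were IL-4 and IL-13 target genes, all negative as well. The values were -1.38 for Retnla, -1.68 for Chil3, -1.90 for Chil4 and -2.28 for Chia1. They were -3.45 for Ccl17, -2.74 for Ccl22, -3.23 for Clca1 and -2.06 for Muc5ac. In all 8 target genes, both TG PBS libraries also stood above both WT PBS libraries in CPM. The interaction subtracts this PBS difference, so choosing genes by a negative interaction favours that arrangement, and it is not separate evidence. The share of all genes with that arrangement was not counted. None of the 8 was called by edgeR in that comparison (beside 0.281% of all genes called higher). The levels were, for example, 508 ± 2.06 against 378 ± 5.47 CPM for Chil3, 11.9 ± 2.70 against 3.02 ± 0.584 CPM for Ccl17, 19.7 ± 2.04 against 5.68 ± 3.30 for Clca1 and 12.6 ± 2.65 against 6.78 ± 2.31 for Ccl22 (n = 2 libraries each). The call of Retnla is lost without WT PBS replicate 2, WT HDM replicate 2 or TG PBS replicate 2 (adjusted p = 0.154, 0.0949 and 0.101), and that of Ccl22 without WT PBS replicate 2 or TG PBS replicate 2 (adjusted p = 0.0806 and 0.0552). The sex of the mice cannot be told apart from the treatment in this contrast, but it was alike in the 2 genotypes at each treatment by the counts of Xist and Ddx3y.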

How the results depend on the processing

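Of the 10 genes, 1 was called in the comparison of TG HDM with WT HDM, in each treatment comparison and in the interaction. In WT HDM against WT PBS the count became 2, with Il4ra, under DESeq2, without the low-count filter, and with the length offset and replicate block (log2 differences 0.68, 0.68 and 0.76), and in the interaction it became 2 under DESeq2 (Il4ra, -1.13). With each library left out in turn, it ranged from 0 to 1 in both comparisons of TG HDM and from 1 to 2 in WT HDM against WT PBS. The IL-4 and IL-13 target genes called ranged from 0 to 14 between TG HDM and WT HDM and from 0 to 3 between TG PBS and WT PBS with each library left out. In the latter comparison 2 were called by DESeq2, 2 without the low-count filter, 2 with all 8 libraries in a single fit, and 1 with the length offset and replicate block, namely Clca1 (higher, 1.78 to 1.88 in these) with Chil3 or Ccl17.

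Directions turned only for differences near 0 or with few counts. For Il13ra1 between TG HDM and WT HDM, the value was -0.00402 with RLE size factors, -0.00434 with DESeq2 and -0.0260 with all 8 libraries, against 0.01. For Tslp between WT HDM and WT PBS it was -0.0561 with the length offset and -0.0857 with the length offset and replicate block. With a library left out, the ranges crossed 0 for Il13ra1 between TG HDM and WT HDM (-0.0820 to 0.10), for Il1rl1 between TG HDM and WT HDM (-1.43 to 0.0680), between WT HDM and WT PBS (-0.38 to 0.53), between TG HDM and TG PBS (-0.75 to 0.77) and in the interaction (-0.78 to 0.76), for Tslp between TG PBS and WT PBS (-0.21 to 1.01) and between WT HDM and WT PBS (-0.20 to 0.35), and for Il4 in the interaction (-4.05 to 1.61). The replicate numbers do not pair the libraries, with correlations of -0.021 to 0.032 between deviations of same-numbered libraries over 15868 genes. With the replicate block, the genes called in all went from 98 to 45 between TG PBS and WT PBS, from 370 to 625 between TG HDM and WT HDM, from 1020 to 1118 in WT and from 2079 to 2806 in TG with HDM, and from 279 to 363 in the interaction, with no change among the 10 genes. Counts over all genes moved by more than 1.5 times in every comparison. Between TG HDM and WT HDM, 370 became 922 with DESeq2, 1055 without the low-count filter, 771 with all 8 libraries, 188 with the length offset and 6 to 1595 with a library left out. The other comparisons became 223, 306 and 164 (TG PBS against WT PBS with DESeq2, without the filter, and with the length offset and block), 680 and 675 (interaction with DESeq2 and without the filter), 1588 (WT without the filter) and 1368 (TG with the length offset), and with a library left out 75 to 432, 138 to 721, 652 to 1661 and 277 to 2676 in that order. Low depth limits Il4, Il5, Il13, Il13ra2, Il25 and Tslp, and the cause of the lost calls without a library was not tested.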
